A study of Takifugu obscurus and Periophthalmus magnuspinnatus and Gallus gallus with 6 samples.

Results

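The genes described here belong to bone morphogenetic protein (BMP) signalling, and their levels were followed across the cell classes of the fugu and chicken spinal cord. They were chosen by symbol. Every row of the gene tables was taken whose symbol started with BMP and a digit or BMPR, with GDF or SMAD and a digit, or with CHRD, NOG, BAMBI or GREM, or was one of the ID genes ID1 to ID4, with or without a fish copy letter. The rule used no measured value and found 50 of 21383 genes in fugu and 37 of 17007 genes in chicken. BMP1, a secreted protease, and BMP2K, an intracellular kinase, carry the BMP name without being ligands, and they are described apart from the ligands.

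The study compared oligodendrocyte differentiation between vertebrates by single-cell RNA sequencing of the spinal cord at pectoral fin or wing level. Fugu were juveniles about 1 month after hatching, labelled Takifugu obscurus and described in the methods as a hybrid with Takifugu rubripes. Chicken (Gallus gallus) embryos were at embryonic day 10 to 11. No genotype or treatment differed, so that the groups compared are cell classes within a species, each measured in 2 libraries per species, and each library held living cells pooled from several animals. The ages differed between the species, and no level was tested between them. The 2 mudskipper libraries of the series pair no symbols with their gene identifiers and were not used here.

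BMPs and GDFs are secreted ligands of the TGF-beta family. Many of them bind pairs of type I receptors (such as BMPR1A and BMPR1B) and type II receptors (such as BMPR2), which phosphorylate SMAD1, SMAD5 and SMAD9, and these enter the nucleus with SMAD4. SMAD2 and SMAD3 serve the activin and TGF-beta branch, and SMAD6 and SMAD7 inhibit signalling. The ligand genes were counted together here, whichever branch they serve. Noggin, chordin and gremlin proteins bind ligands outside the cell, whereas BAMBI is a membrane pseudoreceptor without kinase activity. The ID genes are direct targets of SMAD1, SMAD5 and SMAD9 in many mammalian cells. ID proteins hold back basic helix-loop-helix factors, in this lineage OLIG1 and OLIG2 among them, and in rodents BMP signals favour astrocytes over oligodendrocytes.

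After doublets were removed, 2556 and 2519 fugu cells and 7626 and 7743 chicken cells were kept, with median depths of 5386 and 5455 UMIs in fugu and 12125 and 12440 UMIs in chicken. A UMI, or unique molecular identifier, stands for 1 captured RNA molecule. The fugu cells formed 14 classes and the chicken cells 19 classes, and clustering was run without the genes described here among its variable features. The UMIs of a class were summed per library, and levels are given as CPM, a gene's UMIs scaled to the total UMIs of that sum, library 1 before library 2. The oligodendrocyte lineage held, in order of rising mbpa, a myelin protein gene, sema5a SOX10 cells, gpr17 cells and myelinating cells in fugu. In chicken, in order of rising MBP except that the levels of precursors and cycling precursors overlapped, it held precursors, cycling precursors, DLL1 MCM2 cells, cycling OLIG2 cells, GPR17 cells, CMTM7 cells, ERMN cells and ENPP6 cells. The chicken precursors had PDGFRA, the receptor that defines oligodendrocyte precursors in mammals, whereas the fugu sema5a SOX10 cells had pdgfra at 2.48 and 0 CPM with 5 of 5 lineage markers above the rest. The sema5a SOX10 cells also had all 5 genes of a radial glia panel for fugu above the rest (sema5a, c1ql4b, PLXNB1, olig1 and SOX10), and 1 of 11 general astrocyte or radial glia markers. The panel includes the genes for which the class was named, and OLIG1 and SOX10 are also among the oligodendrocyte lineage markers used here. The paper's text names Sox2, Vim and Slc1a2 for fish radial glia, and the panel holds none of these. Its count is therefore no independent sign of radial glia. The sema5a SOX10 cells stand first in the lineage by their mbpa level alone, 304 and 141 CPM, which overlapped with the 241 and 193 CPM of astrocyte-like cells, so that their place in the lineage was not tested. Myelin RNA was also counted in classes that should lack it, since the fugu hbbe2 red blood cells held 2643 and 3696 CPM of mbpa and the T or NK-like cells 64.1 and 48.8 CPM, and its part in the levels below was not tested. The 2 chicken libraries shared 17 cell barcodes and the fugu libraries 0.

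Differences between classes were tested on the summed counts with the quasi-likelihood test of edgeR, over 13356 genes in fugu and 13408 in chicken, and a gene was called higher or lower at an adjusted p under 0.05. Fold changes are log2 values with their standard error. They were computed after a scaling between class sums (TMM) that the CPM values do not carry, so that levels and fold changes can differ. The classes were cut from the same cells in which the genes were then tested. The spread of a gene was estimated over all classes of a species together, from 2 libraries, that is, 2 pools of animals. Class sums of the same library entered this fit as if independent. The p-values therefore do not measure the spread within the classes compared alone. Of the 50 fugu genes, 42 had a UMI in a kept cell and 31 passed the filter of 50 UMIs over the species. Of the 37 chicken genes, 35 had a UMI and 32 passed. The 8 fugu genes without a UMI were gdf2, gdf3, bmp2b, GREM1, 2 copies named BMP10, and the second copies of smad4a and smad6a, which allows each up to 0.0961 CPM. In chicken these were GDF6 and BMP10, at up to 0.0146 CPM. Below the filter were 11 fugu genes (bmp1b, bmp3, bmp4, bmp7a, bmp8a, bmp10, bmp16, gdf6a, gdf6b, gdf10b and bmpr1ba) and 3 chicken genes (BMP15, GDF5 and GDF9).

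The 4 fugu ID genes differed in the class that held the most of them. Fugu id1 was high in glia outside the oligodendrocyte lineage. It stood at 1604 and 1182 CPM in aqp1a.1 glia, 995 and 1049.96 CPM in her9 glia, 771 and 486 CPM in astrocyte-like cells and 703 and 527 CPM in cycling cells. The first pair of classes did not overlap, whereas astrocyte-like and cycling cells did. The lineage classes were far below these, at 9.94 and 56.7 CPM in sema5a SOX10 cells, 186 and 116 CPM in gpr17 cells and 41.9 and 36.3 CPM in myelinating cells. T or NK-like cells, which should lack the gene, held 2.79 and 3.48 CPM. In gpr17 cells id1 rested on 78 and 38 UMIs in 13.1% and 18.2% of the cells, at median depths of 5728 and 7206.5 UMIs, against 1.59% and 1.96% of the T or NK-like cells at 5400 and 5131 UMIs.

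Fugu id2a was shared by neurons, microglia and glia. The slc17a6b neuron-like cells had 1382 and 1382 CPM, the scrt2 neuron-like cells 987 and 755 CPM, microglia-like cells 667 and 1069 CPM, her9 glia 774 and 880.4 CPM and astrocyte-like cells 692 and 819 CPM. Below the slc17a6b cells these classes overlapped with each other. The oligodendrocyte lineage was at 49.7 and 82.2 CPM in sema5a SOX10 cells, 23.8 and 61.3 CPM in gpr17 cells and 44.8 and 48.2 CPM in myelinating cells, and the gpr17 cells overlapped with both other classes. T or NK-like cells held 13.9 and 45.3 CPM on 5 and 13 UMIs, which overlapped with the gpr17 cells. The hbbe2 red blood cells, 10 in each library, held 0 UMIs of id2a. Whether the level of the T or NK-like cells is background was not tested.

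Fugu id4 marked the astrocyte-like cells, where it stood at 753 and 718 CPM with a UMI in 82.6% and 84.8% of the cells. The aqp1a.1 glia followed at 365 and 245 CPM and the slc17a6b neuron-like cells at 108 and 93.9 CPM. In the lineage id4 was close to 0, at 2.48 and 1.83 CPM in sema5a SOX10 cells, 11.9 and 3.06 CPM in gpr17 cells and 1.15 and 0.64 CPM in myelinating cells. T or NK-like cells held 5.57 and 0 CPM.

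Fugu id3 had the opposite placement. The sema5a SOX10 cells held 433 and 469.7 CPM, with a UMI in 70.9% and 61.1% of the cells. The gpr17 cells held 200.2 and 123 CPM and the myelinating cells 93.9 and 75.7 CPM, and the 3 lineage classes did not overlap. Astrocyte-like cells had 8.19 and 6.43 CPM and her9 glia 11.3 and 2.95 CPM, against 2.79 and 3.48 CPM in T or NK-like cells. The smooth muscle-like cells were the other class with id3, at 224 and 128 CPM. The highest id3 level thus lay in sema5a SOX10 cells, whose place in the lineage was not tested. Among the fugu glia and lineage classes id1 and id4 were highest outside the lineage.

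In chicken, ID1, ID3 and ID4 were high in the same glial classes. The AQP1 RSPO1 glia, which had 9 of 12 astrocyte or radial glia markers above the rest, held 1337 and 1349 CPM of ID1, 538 and 597 CPM of ID3 and 2096 and 2131 CPM of ID4. ID1 and ID3 were among the top 10 genes of that class by fold, although neither had a part in the clustering. Cycling glia followed with 632 and 517 CPM of ID1, 288 and 294 CPM of ID3 and 1509 and 1606 CPM of ID4. Astrocyte-like cells had 321 and 284 CPM of ID1, 128 and 125 CPM of ID3 and 1289.8 and 1447 CPM of ID4. FOXJ1 SHH cells, a small class with ependymal and roof plate markers as well as SHH, overlapped with the astrocyte-like cells in ID4 at 1505 and 1361 CPM. Endothelium-like cells were high in ID1, at 766 and 1020.5 CPM, and lay between AQP1 RSPO1 glia and cycling glia.

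In the 8 chicken lineage classes ID1, ID3 and ID4 stood near the level of the HBBA red blood cells, which should lack them. ID1 ranged from 2.23 to 9.03 CPM over the 8 classes and both libraries, against 9.78 and 6.64 CPM in HBBA cells. ID3 ranged from 1.56 to 4.63 CPM, against 0 and 8.3 CPM. ID4 ranged from 11.7 to 31.6 CPM, against 24.4 and 34.9 CPM. In precursors a UMI of ID4 was found in 23.9% and 30.7% of the cells at median depths of 10944 and 11784 UMIs, and in 11.6% and 25% of the HBBA cells at 14436 and 13158 UMIs. The HBBA levels rest on few UMIs, 6 and 4 of ID1, 0 and 5 of ID3 and 15 and 21 of ID4. Whether the lineage levels of these genes are background was not tested.

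Chicken ID2 was the ID gene of the precursors. It stood at 392 and 342 CPM in precursors, 320.2 and 282 CPM in cycling precursors, 232 and 200.4 CPM in DLL1 MCM2 cells, 124 and 128 CPM in cycling OLIG2 cells, 50.7 and 44 CPM in GPR17 cells, 25 and 27.2 CPM in CMTM7 cells, 17.5 and 19 CPM in ERMN cells and 8.82 and 11.1 CPM in ENPP6 cells. No neighbouring pair of these 8 classes overlapped. ENPP6 cells ended at the level of the HBBA cells, 11.4 and 8.3 CPM. The share of cells with a UMI was 10.1% and 13.3% in ENPP6 cells, 90.4% and 89.4% in precursors and 16.3% and 6.82% in HBBA cells. With every cell thinned to 3000 UMIs it was 2.65% and 2.89% in ENPP6 cells and 64.4% and 58.9% in precursors. Outside the lineage ID2 was also high in NEUROD6 PAX2 neuron-like cells, at 715 and 919.8 CPM, and in AQP1 RSPO1 glia, at 800.01 and 786 CPM, and these classes overlapped.

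**Figure D1:**
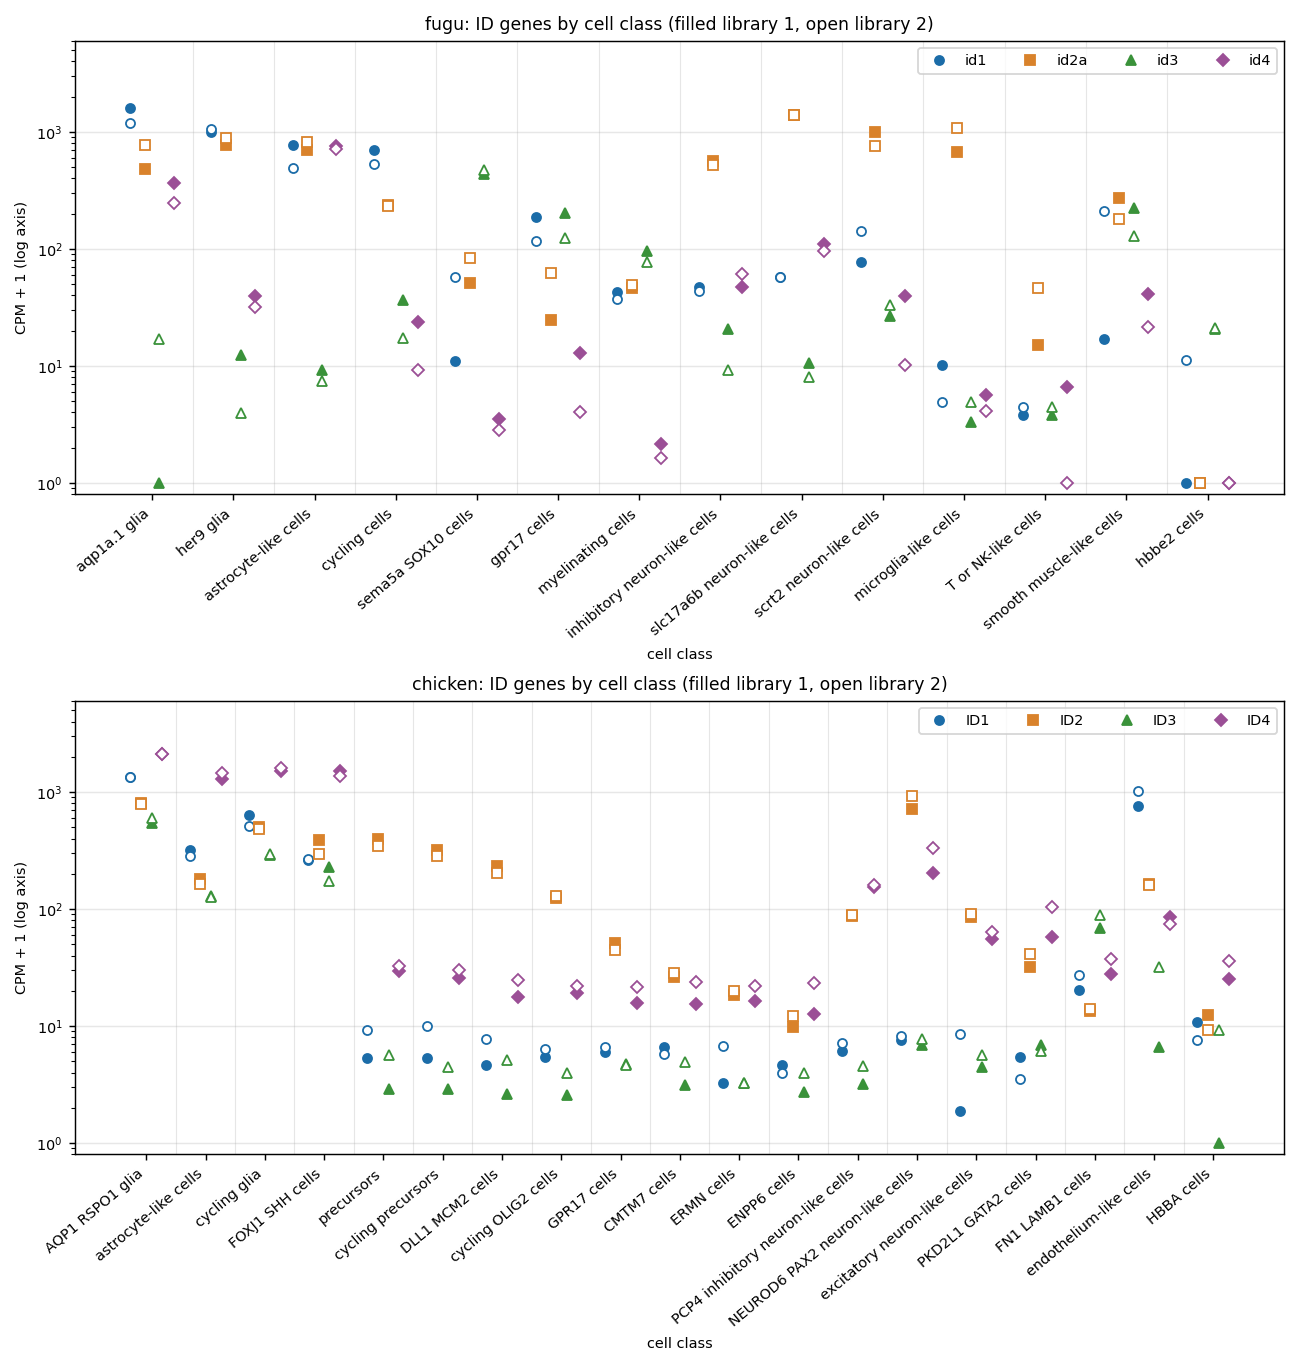
Levels of the 4 ID genes in every cell class of fugu and chicken, as CPM + 1 on a log axis, with a filled point for library 1 and an open point for library 2. Fugu id3 is high in sema5a SOX10 cells (433 and 470 CPM) where id4 is near 0, and chicken ID2 is the ID gene of the precursors (392 and 342 CPM).

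The ID genes were next followed along differentiation without the class borders. The cells of the lineage were ranked by a score of myelin against precursor genes and divided into 5 equal bins per library. Chicken ID2 had 335, 232, 89.6, 31.8 and 13.3 CPM from the first to the last bin in library 1 and 267, 182, 58.1, 25.6 and 13.8 CPM in library 2, lower at each step in both libraries. Chicken ID1 and ID3 stayed near the level of the HBBA cells in every bin. In fugu 61 and 44 gpr17 cells were ranked together with 1231 and 1112 myelinating cells. Every fugu bin therefore held mostly myelinating cells, and the bins do not span the lineage as in chicken. Fugu id1 had 109, 49.3, 33.8, 33.8 and 26.7 CPM in library 1 and 61.6, 15.4, 38.8, 44.9 and 40.9 CPM in library 2. Both libraries had their highest id1 level in the first bin, and in library 2 the second bin held the lowest level. Fugu id3 had 96.8 and 79.5 CPM in the last bin, against 129 and 94.4 CPM in the first. Fugu id2a was slightly higher in the last bin, at 48.4 and 61.8 CPM, against 37.6 and 53.8 CPM in the first.

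**Figure D2:**
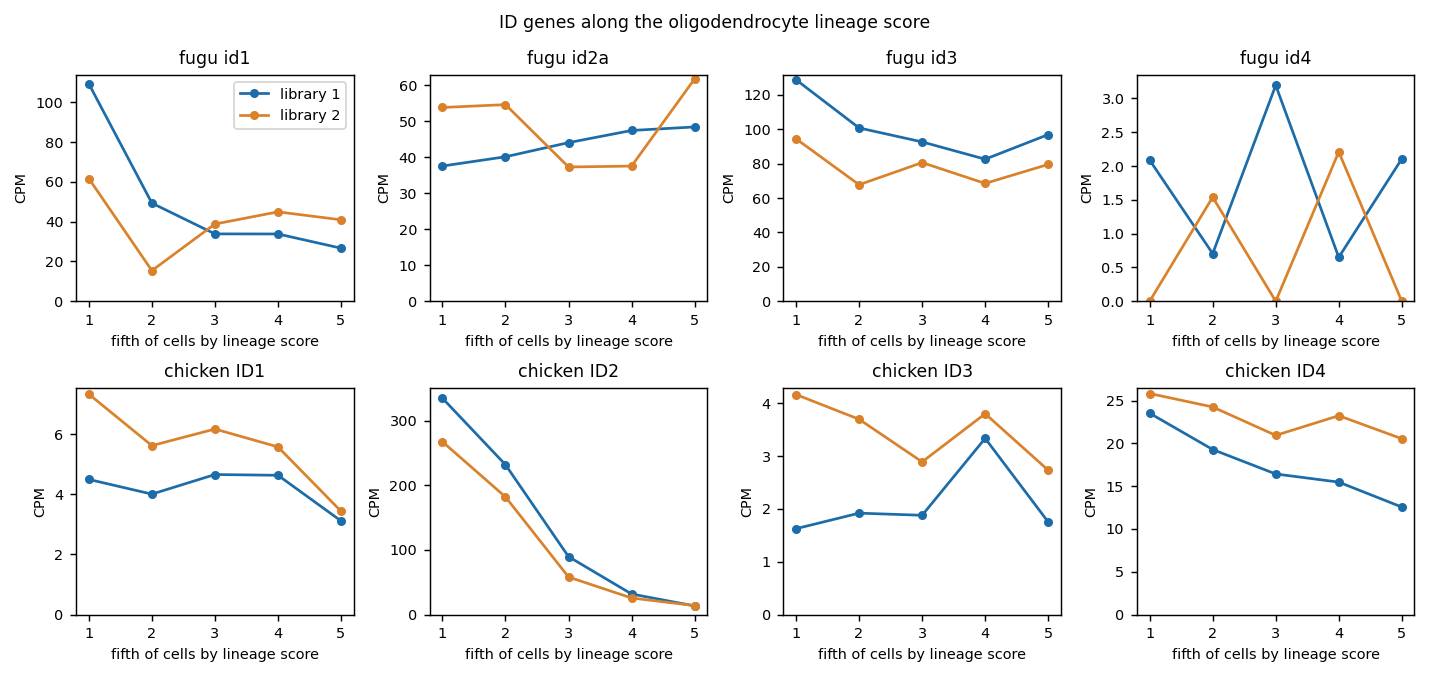
CPM of each ID gene against the bin of lineage cells, from the least to the most myelin-like, with a line per library. Chicken ID2 falls in each step of both libraries, to 13.3 and 13.8 CPM in the last bin. Fugu id3 stands at 96.8 and 79.5 CPM in the last bin, and every fugu bin holds mostly myelinating cells.

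Between the classes, the tests gave the following. Fugu id3 was lower in gpr17 cells than in sema5a SOX10 cells (log2 fold change -1.12 ± 0.28, adjusted p = 0.00292) and lower in myelinating cells than in sema5a SOX10 cells (log2 fold change -1.62 ± 0.25, adjusted p = 2.03e-06), whereas the step between myelinating and gpr17 cells did not pass (log2 fold change -0.51 ± 0.28, adjusted p = 0.209). That step did pass with the size factors of DESeq2 (-0.95), at clustering resolution 1.0 (-0.81) and with a filter on 10% of cells (-0.92). Fugu id1 ran another way. It was higher in gpr17 cells than in sema5a SOX10 cells (log2 fold change 2.68 ± 0.51, adjusted p = 0.000101) and lower in myelinating cells than in gpr17 cells (log2 fold change -1.53 ± 0.41, adjusted p = 0.00479). Without doublet removal both id1 directions turned round, to -1.49 and 0.16, and with a higher UMI minimum for cells both calls were lost, at 1.42 and -0.25. Myelinating cells were also called higher in id1 than sema5a SOX10 cells, although their CPM overlapped, and id2a and id4 did not pass there. That id1 call was lost under most alternatives, among them DESeq2 (0.33) and thinning to 3000 UMIs (0.71), and turned round without doublet removal (-1.32). The call of id3 between gpr17 and sema5a SOX10 cells was lost without gpr17 replicate 2 (log2 fold change -0.83), and those of id1 and id4 between myelinating and gpr17 cells without gpr17 replicate 1 (log2 fold changes -1.14 and -1.24). The id4 call was also lost without myelinating replicate 2 (-2.27). Between gpr17 and sema5a SOX10 cells, id4 (adjusted p = 0.163) and id2a (log2 fold change -0.31 ± 0.44, adjusted p = 0.695) did not pass. Between myelinating and gpr17 cells id4 was lower (log2 fold change -2.58 ± 0.90, adjusted p = 0.034), on 5 and 1 UMIs in gpr17 cells, and id2a did not pass (log2 fold change 0.63 ± 0.40, adjusted p = 0.291). Chicken ID2 was lower in GPR17 cells than in precursors (log2 fold change -2.76 ± 0.14, adjusted p = 6.13e-15), in ENPP6 cells than in GPR17 cells (log2 fold change -2.03 ± 0.16, adjusted p = 3.22e-11) and in ENPP6 cells than in precursors (log2 fold change -4.80 ± 0.16, adjusted p = 6.13e-19). It was also lower in ENPP6 cells than in ERMN cells (log2 fold change -0.89 ± 0.18, adjusted p = 0.000432). In cycling precursors ID2 was lower than in precursors by a smaller step (log2 fold change -0.47 ± 0.13, adjusted p = 0.014), a call lost without cycling precursors replicate 2 (-0.36) or precursors replicate 1 (-0.35). The ID2 call was also lost with cells thinned to 3000 UMIs (-0.42) and without doublet removal (-0.375). Chicken ID1, ID3 and ID4 did not pass in any of these chicken comparisons. For ID4 between GPR17 cells and precursors (log2 fold change -0.57, adjusted p = 0.069), a call was gained under some alternatives. Among them were DESeq2 (-0.66), its size factors (-0.66) and the filter on 10% of cells (-0.63).

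Astrocyte-like cells were higher in 3 of the 4 ID genes and lower in 1, against myelinating cells in fugu and against precursors in chicken. In fugu they exceeded myelinating cells in id4 (log2 fold change 9.07 ± 0.37, adjusted p = 6.83e-19), id2a (log2 fold change 3.57 ± 0.29, adjusted p = 3.78e-12) and id1 (log2 fold change 3.54 ± 0.37, adjusted p = 6.98e-10), and fell below them in id3 (log2 fold change -3.98 ± 0.35, adjusted p = 1.08e-11). In chicken they exceeded precursors in ID1 (log2 fold change 5.76 ± 0.28, adjusted p = 1.32e-15), ID4 (log2 fold change 5.64 ± 0.27, adjusted p = 7.64e-16) and ID3 (log2 fold change 5.49 ± 0.32, adjusted p = 3.44e-14), and fell below them in ID2 (log2 fold change -0.97 ± 0.13, adjusted p = 4.53e-07). The chicken fold changes of ID1, ID3 and ID4 are set against precursor levels near those of the HBBA cells. Within glia, the fugu her9 glia had less id4 than astrocyte-like cells (log2 fold change -3.90 ± 0.27, adjusted p = 8.48e-13) and more id1 (log2 fold change 1.20 ± 0.33, adjusted p = 0.00589). The id1 call was lost without astrocyte-like replicate 2 (0.92) and with DESeq2 (1.19). The chicken AQP1 RSPO1 glia exceeded astrocyte-like cells in ID2 (log2 fold change 2.18 ± 0.13, adjusted p = 1.32e-12), ID3 (log2 fold change 2.13 ± 0.21, adjusted p = 1.21e-08) and ID1 (log2 fold change 2.12 ± 0.21, adjusted p = 9.97e-09), and in ID4 (log2 fold change 0.60 ± 0.21, adjusted p = 0.0441) only with all libraries, since leaving out any class sum of a library lost the ID4 call (0.53 to 0.67).

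Among the ligands, fugu bmp5 was highest in sema5a SOX10 cells and then gpr17 cells, and chicken BMP2 was highest in ERMN cells and then CMTM7 cells. Both encode ligands of the BMP branch. The sema5a SOX10 cells held 276 and 285 CPM of bmp5, gpr17 cells 203 and 129 CPM and myelinating cells 2.87 and 2.08 CPM, with no overlap between the classes. Cycling cells had 99 and 108 CPM and her9 glia 66.1 and 47.2 CPM, and inhibitory neuron-like cells 1.23 and 1.17 CPM. Myelinating cells were below gpr17 cells (log2 fold change -5.58 ± 0.42, adjusted p = 1.45e-11) and below sema5a SOX10 cells (log2 fold change -5.97 ± 0.40, adjusted p = 6.83e-14). The difference between gpr17 and sema5a SOX10 cells did not pass (log2 fold change -0.39 ± 0.33, adjusted p = 0.448). A second fugu ligand, bmp7b, had 20.2 and 16.2 CPM in myelinating cells and 26.2 and 6.13 CPM in gpr17 cells, and none in sema5a SOX10 cells. The 242 UMIs in myelinating cells were at least 8.26-fold higher than the floor of 3 counts in sema5a SOX10 cells (adjusted p = 6.25e-06), and gpr17 cells were at least 7.86-fold higher (adjusted p = 0.000744, a call lost without gpr17 replicate 1). Fugu gdf6a, below the filter for testing, had 11.9 and 12.3 CPM in gpr17 cells on 5 and 4 UMIs and 8.49 and 8.21 CPM in cycling cells.

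Chicken BMP2 stood at 10.2 and 10.3 CPM in precursors, 32.8 and 33.4 CPM in DLL1 MCM2 cells, 59.8 and 74.7 CPM in GPR17 cells, 112 and 114 CPM in CMTM7 cells, 115 and 144 CPM in ERMN cells and 29.3 and 60.4 CPM in ENPP6 cells. Its level thus was highest late in the order, in CMTM7 and ERMN cells, and lower again in ENPP6 cells, while astrocyte-like cells had 1.6 and 1.12 CPM. BMP2 was higher in GPR17 cells than in precursors (log2 fold change 2.90 ± 0.27, adjusted p = 5.12e-10) and lower in ENPP6 cells than in ERMN cells (log2 fold change -1.54 ± 0.22, adjusted p = 6.23e-06). BMP4 was held up to the ERMN cells. It had 12.7 and 20.2 CPM in precursors, 12.3 and 38.4 CPM in CMTM7 cells, 12.3 and 17.9 CPM in ERMN cells and 1.72 and 1.24 CPM in ENPP6 cells, and its 2 libraries differed in CMTM7 cells. ENPP6 cells were below GPR17 cells in BMP4 (log2 fold change -3.75 ± 0.56, adjusted p = 4.09e-06) and below ERMN cells (log2 fold change -3.43 ± 0.58, adjusted p = 9.35e-05).

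The chicken ligand genes BMP7, BMP6 and GDF10 were low at the end of the lineage. BMP7 had 0.939 and 0.352 CPM in GPR17 cells, against 38.1 and 21.3 CPM in precursors (log2 fold change -5.30 ± 0.52, adjusted p = 2.41e-09). BMP6 was highest among lineage cells in the DLL1 MCM2 and cycling OLIG2 cells, at 25.5 and 23.6 CPM and 24.5 and 22.5 CPM. Cycling precursors exceeded precursors in it (log2 fold change 1.61 ± 0.37, adjusted p = 0.00303), and ENPP6 cells, with 0 UMIs, were at least 32.3-fold lower than GPR17 cells (adjusted p = 9.22e-09). GDF10, a ligand of the same family, was also at 0 UMIs in ENPP6 cells, at least 56.5-fold lower than precursors (adjusted p = 8.88e-08) and at least 4.95-fold lower than GPR17 cells (adjusted p = 0.00759, a call lost without ENPP6 replicate 2 and with cells thinned to 3000 UMIs). It had 1.41 and 0.821 CPM in GPR17 cells and 11.4 and 14.5 CPM in precursors (log2 fold change -3.31 ± 0.49, adjusted p = 4.55e-06). BMP3 in lineage cells rested on a few UMIs (5 in GPR17 cells and 0 in precursors, adjusted p = 0.0497), and its call was lost under 11 alternatives.

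Outside the lineage, the FOXJ1 SHH cells of chicken held the highest level of 3 ligands. They had 206 and 106 CPM of BMP5, 128 and 93.6 CPM of BMP7 and 168 and 69.8 CPM of GDF10, and library 1 was above library 2 in each. The FN1 LAMB1 cells, with 39 and 16 CPM of BMP5, were next for that gene. BMP3 was a neuronal ligand, at 48.6 and 42.7 CPM in NEUROD6 PAX2 neuron-like cells and 25.3 and 28.6 CPM in excitatory neuron-like cells, and GDF11, with 9.3 and 7.73 CPM in the NEUROD6 PAX2 cells, had its highest mean there and overlapped with excitatory neuron-like cells. BMP6 had 27.9 and 61.8 CPM in endothelium-like cells, a class of few cells. GDF3, named for a ligand of the TGF-beta family, had 599 and 645 CPM in astrocyte-like cells and 623 and 629.6 CPM in AQP1 RSPO1 glia, against 162 and 149 CPM in precursors. Astrocyte-like cells were below precursors in BMP4 (log2 fold change -4.19 ± 0.58, adjusted p = 1.15e-06) and BMP2 (log2 fold change -2.76 ± 0.40, adjusted p = 1.51e-06), and BMP5 had 3 UMIs in astrocyte-like cells and 16 UMIs in precursors, 10.9-fold lower (95% counting interval 3.12 to 58.4) (adjusted p = 0.00548). AQP1 RSPO1 glia had less BMP7 than astrocyte-like cells (log2 fold change -2.07 ± 0.48, adjusted p = 0.00211), a call lost without AQP1 RSPO1 glia replicate 2 (-1.43) or astrocyte-like replicate 1 (-1.60).

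In fugu the glial ligands were bmp6, GDF10 and gdf11. The aqp1a.1 glia held 37.5 and 26.6 CPM of bmp6 and the her9 glia 33.4 and 22.9 CPM, against 10.4 and 2.75 CPM in astrocyte-like cells, and her9 glia exceeded astrocyte-like cells (log2 fold change 2.62 ± 0.50, adjusted p = 0.000126). GDF10 had 31 and 28 CPM in her9 glia, against 3.82 and 5.05 CPM in astrocyte-like cells (log2 fold change 3.17 ± 0.61, adjusted p = 0.000243), a call lost with DESeq2 (3.22). In aqp1a.1 glia it was found in 1 of the 2 libraries, at 64.4 and 0 CPM. Fugu gdf11 had 59 and 74.5 CPM in aqp1a.1 glia and 42 and 55.1 CPM in astrocyte-like cells, and 2.30 and 2.08 CPM in myelinating cells. The protease gene bmp1a was highest in smooth muscle-like cells, at 112 and 133 CPM. It had 21.1 and 16.4 CPM in sema5a SOX10 cells and 0 UMIs in myelinating cells, at least 84.7-fold lower than sema5a SOX10 cells (adjusted p = 1.95e-08). Astrocyte-like cells were at least 48.3-fold higher in bmp1a than myelinating cells (adjusted p = 2.13e-08). Between gpr17 and sema5a SOX10 cells it was 14.3-fold lower (95% counting interval 2.36 to 588) on 1 and 26 UMIs (adjusted p = 0.0185), and the call was lost without gpr17 replicate 1, gpr17 replicate 2 or sema5a SOX10 replicate 1. This call was also lost with a higher UMI minimum for cells and with cells thinned to 3000 UMIs.

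BMP2K, the kinase, had another course in each species, and the difference between them was not tested. In chicken it was high in the late lineage, with 8.59 and 9.48 CPM in precursors, 12.2 and 10.6 CPM in GPR17 cells, 104 and 119.5 CPM in ERMN cells and 221 and 211 CPM in ENPP6 cells. ENPP6 cells exceeded GPR17 cells (log2 fold change 4.43 ± 0.17, adjusted p = 9.22e-18). In fugu bmp2k had 33.5 and 23.8 CPM in sema5a SOX10 cells, 159.7 and 91.9 CPM in gpr17 cells and 95.6 and 65 CPM in myelinating cells. The gpr17 cells exceeded sema5a SOX10 cells (log2 fold change 2.47 ± 0.35, adjusted p = 1.34e-06), and the difference between myelinating and gpr17 cells did not pass (log2 fold change -0.23 ± 0.28, adjusted p = 0.603). Fugu astrocyte-like cells, at 163 and 157 CPM, were the highest class, and her9 glia were far below them (log2 fold change -2.84 ± 0.30, adjusted p = 4.87e-09).

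**Figure D3:**
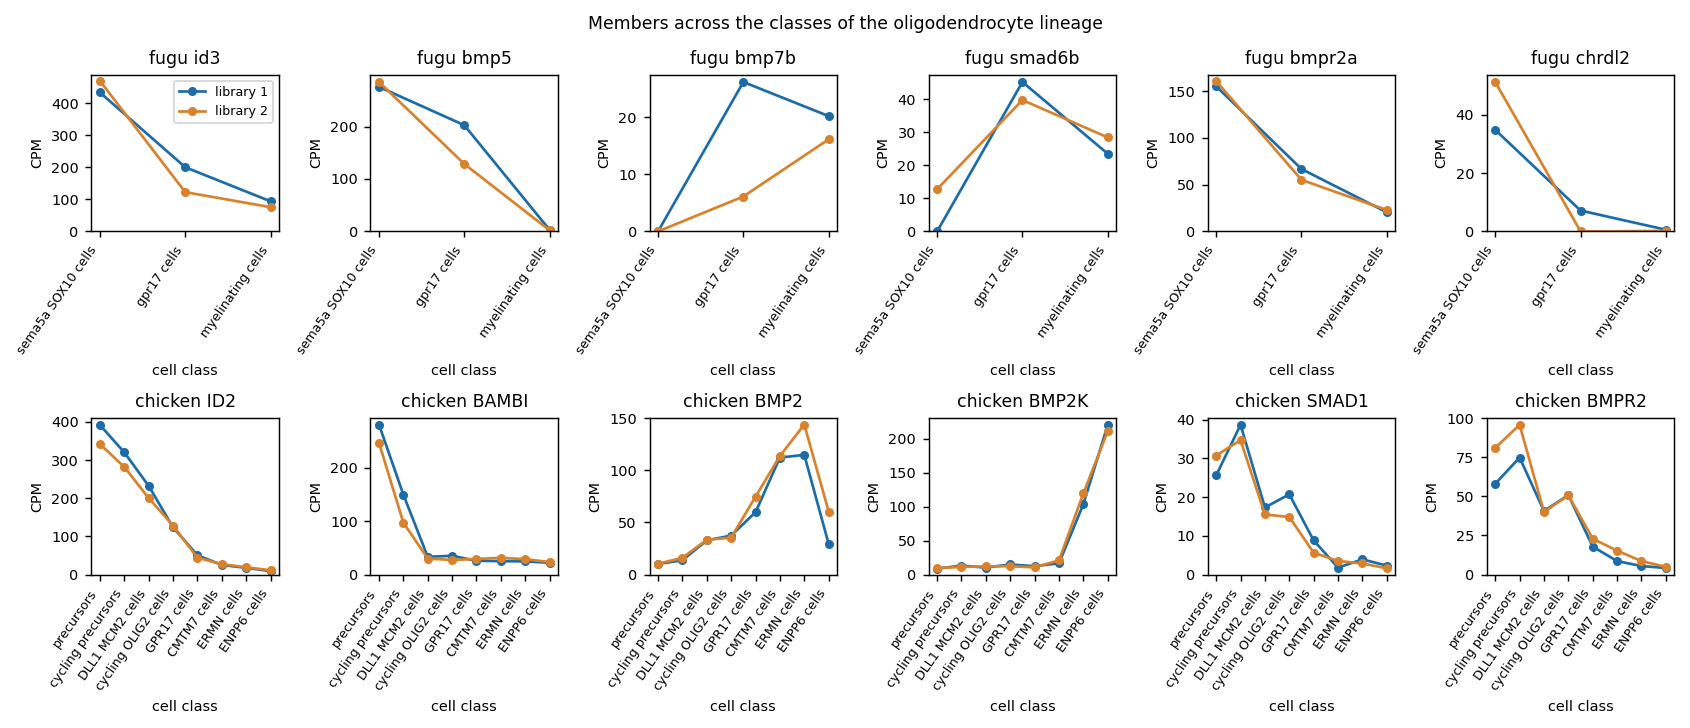
CPM of 6 fugu and 6 chicken genes in the classes of the oligodendrocyte lineage, in the order by mbpa or MBP given in the text, with a blue line for library 1 and an orange line for library 2. Fugu bmp5 and chicken ID2 and BAMBI are low in the last classes, BMP2 peaks in ERMN cells (115 and 144 CPM) and BMP2K in ENPP6 cells (221 and 211 CPM).

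The type II receptors were lower in the late oligodendrocyte lineage of both species. In fugu the type II receptor bmpr2a had 155 and 161 CPM in sema5a SOX10 cells, 66.7 and 55.1 CPM in gpr17 cells and 20.5 and 22.9 CPM in myelinating cells, with no overlap. Myelinating cells were below gpr17 cells (log2 fold change -1.06 ± 0.30, adjusted p = 0.00742) and gpr17 cells below sema5a SOX10 cells (log2 fold change -1.01 ± 0.29, adjusted p = 0.00729). Neurons and astrocyte-like cells held bmpr2a too, with 134 and 149 CPM in slc17a6b neuron-like cells and 98.3 and 99.6 CPM in astrocyte-like cells. The bmpr2a call between myelinating and gpr17 cells was lost without gpr17 replicate 1 (-0.91) and with cells thinned to 3000 UMIs (-1.09). In chicken BMPR2 had 58.1 and 81.1 CPM in precursors, 17.8 and 22.9 CPM in GPR17 cells and 4.22 and 4.94 CPM in ENPP6 cells. ENPP6 cells were below precursors in BMPR2 (log2 fold change -3.51 ± 0.29, adjusted p = 2.21e-11), in BMPR1B (log2 fold change -3.46 ± 0.51, adjusted p = 1.33e-06) and in BMPR1A (log2 fold change -1.49 ± 0.14, adjusted p = 7.82e-10), that is, in 3 of 3 receptors tested, where 31.5% of all genes tested were lower.

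The type I receptors were higher in chicken glia than in the lineage. BMPR1B had 334 and 285 CPM in astrocyte-like cells and 10.6 and 6.74 CPM in precursors (log2 fold change 5.25 ± 0.25, adjusted p = 7.69e-16). FOXJ1 SHH cells held 529.8 and 434 CPM and FN1 LAMB1 cells 298 and 183 CPM, while HBBA cells held 4.89 and 1.66 CPM, within the range of the later lineage classes. BMPR1A had 376 and 379.6 CPM in astrocyte-like cells and 85.1 and 95.4 CPM in precursors (log2 fold change 2.201 ± 0.13, adjusted p = 9.76e-14), and stayed above the 6.52 and 13.3 CPM of HBBA cells throughout the lineage. BMPR1B was lower in ENPP6 cells than in ERMN cells (log2 fold change -2.20 ± 0.63, adjusted p = 0.0139), a call lost on leaving out either library of either class (-2.83 to -1.90). It was also lost with cells thinned to 3000 UMIs (-2.52). Fugu type I receptors were sparse. Fugu bmpr1bb had 3 UMIs in astrocyte-like cells, 94 in myelinating cells and 27 in her9 glia, which were 11.9-fold higher (95% counting interval 3.66 to 61.2) than astrocyte-like cells (adjusted p = 0.000376). Myelinating cells were at least 3.21-fold higher in it than sema5a SOX10 cells, which held 0 UMIs (adjusted p = 0.000487).

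BAMBI was high in the first classes of the chicken lineage. It had 281 and 247 CPM in precursors and 149.8 and 97.3 CPM in cycling precursors, and between 22.0 and 35.0 CPM in the other 6 lineage classes. GPR17 cells were below precursors (log2 fold change -3.07 ± 0.20, adjusted p = 9.37e-13), and cycling precursors were below precursors as well (log2 fold change -1.27 ± 0.20, adjusted p = 2.52e-05). FOXJ1 SHH cells had 122 and 90.8 CPM and astrocyte-like cells 7.22 and 7.53 CPM, far below precursors (log2 fold change -5.03 ± 0.23, adjusted p = 3.37e-16). In fugu bambib had 57.1 and 54.8 CPM in sema5a SOX10 cells, 35.8 and 15.3 CPM in gpr17 cells and 55.1 and 58.1 CPM in myelinating cells. On the TMM-scaled counts myelinating cells were called higher than sema5a SOX10 cells, although the CPM of these classes overlapped. Myelinating cells exceeded gpr17 cells (log2 fold change 1.53 ± 0.37, adjusted p = 0.00181), a call lost without gpr17 replicate 2 (1.11).

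The secreted antagonists were found mostly in glia and neurons. In chicken NOG, noggin, had 185 and 164 CPM in AQP1 RSPO1 glia, 27.3 and 37.4 CPM in astrocyte-like cells, 146 and 117 CPM in NEUROD6 PAX2 neuron-like cells and 7.18 and 7.79 CPM in precursors. AQP1 RSPO1 glia exceeded astrocyte-like cells (log2 fold change 2.40 ± 0.20, adjusted p = 6.35e-10). NOG2, the second noggin, was likewise highest in AQP1 RSPO1 glia, at 9.74 and 10.1 CPM, and had 0 UMIs in ENPP6 cells, at least 7.16-fold lower than precursors (adjusted p = 0.000108). CHRDL1, a chordin-like antagonist, had 69.8 and 77.3 CPM in AQP1 RSPO1 glia. Within the lineage it was highest in GPR17 cells, at 14.2 and 17.7 CPM, against 3.28 and 6.53 CPM in precursors, and ENPP6 cells lay below GPR17 cells (log2 fold change -4.06 ± 0.47, adjusted p = 7.78e-08). GREM1, gremlin, had 99.6 and 50.7 CPM in PKD2L1 GATA2 cells and 38.7 and 34.9 CPM in AQP1 RSPO1 glia, which exceeded astrocyte-like cells (log2 fold change 2.01 ± 0.31, adjusted p = 2.04e-05). In the lineage it was highest in CMTM7 cells, at 30.9 and 20.7 CPM, and ERMN cells, at 31.1 and 12.8 CPM, and fell to 4.79 and 2.96 CPM in ENPP6 cells (log2 fold change -2.56 ± 0.38, adjusted p = 1.63e-05 against ERMN cells). Cycling precursors had less GREM1 than precursors (log2 fold change -1.89 ± 0.61, adjusted p = 0.0348), a call lost on leaving out either library of either class. It was also lost with cells thinned to 3000 UMIs (-1.71), at clustering resolution 1.0 (-0.88) and with the size factors of DESeq2 (-1.81).

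CHRD, chordin, was low everywhere, with 8.92 and 7.61 CPM at most in PKD2L1 GATA2 cells, and lower in AQP1 RSPO1 glia than in astrocyte-like cells (log2 fold change -2.18 ± 0.53, adjusted p = 0.00333), a call lost without replicate 2 of either class (-1.67 and -1.25). CHRDL2 was highest in excitatory neuron-like cells, at 5.23 and 3.62 CPM. In fugu nog2 belonged to astrocyte-like cells, at 45.3 and 49.6 CPM, at least 209.8-fold higher than the 0 UMIs of myelinating cells (adjusted p = 3.32e-11), and her9 glia had less of it (log2 fold change -1.76 ± 0.43, adjusted p = 0.00247). Fugu nog1 was split between neurons and the late lineage. It had 33.1 and 136 CPM in inhibitory neuron-like cells, with a wide gap between libraries, and 13.2 and 15.2 CPM in myelinating cells. Astrocyte-like cells held 1 UMI of nog1 and myelinating cells 187, 56.7-fold lower (95% counting interval 10.1 to 2253) (adjusted p = 4.29e-06).

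Fugu chrdl2 and grem1a had lower levels in gpr17 and myelinating cells than in sema5a SOX10 cells. The sema5a SOX10 cells had 34.8 and 51.2 CPM of chrdl2, gpr17 cells 7.15 and 0 CPM and myelinating cells 0.574 and 0.16 CPM, and cycling cells were the highest class at 75 and 72.5 CPM. The gpr17 cells were 10.3-fold lower (95% counting interval 3.35 to 51.4) than sema5a SOX10 cells (adjusted p = 0.00202), and astrocyte-like cells exceeded myelinating cells (log2 fold change 4.81 ± 0.53, adjusted p = 3.59e-09). Myelinating cells were far below sema5a SOX10 cells (log2 fold change -5.69 ± 0.54, adjusted p = 1.70e-10). Fugu grem1a had 94.4 and 150.05 CPM in inhibitory neuron-like cells and 82.4 and 119 CPM in slc17a6b neuron-like cells. In the lineage it had 29.8 and 43.9 CPM in sema5a SOX10 cells, 9.53 and 18.4 CPM in gpr17 cells and 1.72 and 4 CPM in myelinating cells. The step between myelinating and gpr17 cells did not pass (log2 fold change -1.78 ± 0.70, adjusted p = 0.0639) unless the library was a block in the fit (adjusted p = 0.0185).

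Of the SMADs that carry BMP signals, chicken SMAD1 and SMAD9 were low in the late oligodendrocyte lineage, and fugu smad1 was low in every lineage class. Fugu smad1 had 90.1 and 67.5 CPM in astrocyte-like cells, 29.2 and 22.9 CPM in her9 glia and 2.3 and 3.2 CPM in myelinating cells. It had 1 UMI in gpr17 cells and no UMI in sema5a SOX10 cells. Astrocyte-like cells exceeded myelinating cells (log2 fold change 4.34 ± 0.40, adjusted p = 8.98e-11). Chicken SMAD1 had 25.6 and 30.8 CPM in precursors, 8.8 and 5.63 CPM in GPR17 cells and 2.3 and 1.61 CPM in ENPP6 cells. The last value is at the level of HBBA cells, 1.63 and 3.32 CPM, and endothelium-like cells were the highest class at 413 and 389.6 CPM. SMAD9 had 84 and 67 CPM in AQP1 RSPO1 glia and 20.3 and 17.6 CPM in astrocyte-like cells (log2 fold change 1.96 ± 0.24, adjusted p = 4.42e-07). In GPR17 cells it had 0.704 and 1.06 CPM, against 14.7 and 13.9 CPM in precursors (log2 fold change -3.80 ± 0.40, adjusted p = 7.75e-09), and ENPP6 cells with 2 UMIs were 95.5-fold lower (95% counting interval 26 to 796) than precursors (adjusted p = 1.09e-09). SMAD5 differed less along the lineage, with 99.1 and 94.9 CPM in ENPP6 cells and 159 and 127 CPM in precursors, and had 337 and 404 CPM in astrocyte-like cells.

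Of the activin and TGF-beta branch, chicken SMAD2 ranged from 26.2 to 54.8 CPM over the classes other than HBBA cells, with 49.8 and 54.8 CPM in precursors, 42 and 45.3 CPM in GPR17 cells and 45.6 and 50.03 CPM in ENPP6 cells. SMAD3 had 24.2 and 21.3 CPM in precursors, 25.3 and 20.3 CPM in ERMN cells and 54.4 and 54.2 CPM in ENPP6 cells, and 201 and 247 CPM in endothelium-like cells. ENPP6 cells exceeded precursors in it (log2 fold change 1.63 ± 0.15, adjusted p = 2.64e-10). Fugu smad3b was higher in myelinating cells, at 20.7 and 22.6 CPM, than in gpr17 cells, at 4.77 and 12.3 CPM on 2 and 4 UMIs (log2 fold change 1.84 ± 0.55, adjusted p = 0.0128), and this call was lost under 7 alternatives, at 1.24 to 1.51, among them the scaling of DESeq2, no doublet removal and leaving out gpr17 replicate 1.

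The inhibitory SMADs split by copy in fugu. The copy smad6b had 0 and 12.8 CPM in sema5a SOX10 cells, 45.3 and 39.8 CPM in gpr17 cells and 23.5 and 28.5 CPM in myelinating cells, against 4.37 and 3.21 CPM in astrocyte-like cells. The copy smad6a had 14.2 and 15.6 CPM in astrocyte-like cells and 0.718 and 0.8 CPM in myelinating cells, with no UMI in sema5a SOX10 or gpr17 cells. Among these classes smad6b was thus the lineage copy and smad6a the astrocyte-like copy. The gpr17 cells exceeded sema5a SOX10 cells in smad6b (log2 fold change 3.32 ± 0.71, adjusted p = 0.000589), a call lost with cells thinned to 3000 UMIs (2.64). Her9 glia, with 1 UMI of smad6a against 60 in astrocyte-like cells, were 45.4-fold lower (95% counting interval 7.84 to 1823) (adjusted p = 0.000193). Fugu smad7 had 1.29 and 1.6 CPM in myelinating cells and 23.8 and 27.6 CPM in gpr17 cells (log2 fold change -3.62 ± 0.64, adjusted p = 5.45e-05), and slc17a6b neuron-like cells were the highest class at 28.4 and 57.5 CPM. Chicken SMAD6 had 78.2 and 86.6 CPM in endothelium-like cells, and 1.34 and 1.73 CPM in ENPP6 cells, against 14.2 and 15 CPM in precursors (log2 fold change -2.81 ± 0.28, adjusted p = 1.32e-09). SMAD7B had 0 UMIs in ENPP6 cells. These were at least 32.6-fold lower than precursors (adjusted p = 9.89e-09), at least 15.6-fold lower than GPR17 cells (adjusted p = 5.53e-07) and at least 2.95-fold lower than ERMN cells (adjusted p = 0.00859), the last a call lost without ENPP6 or ERMN replicate 2. That call was also lost with cells thinned to 3000 UMIs and at clustering resolution 1.0.

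**Figure D4:**
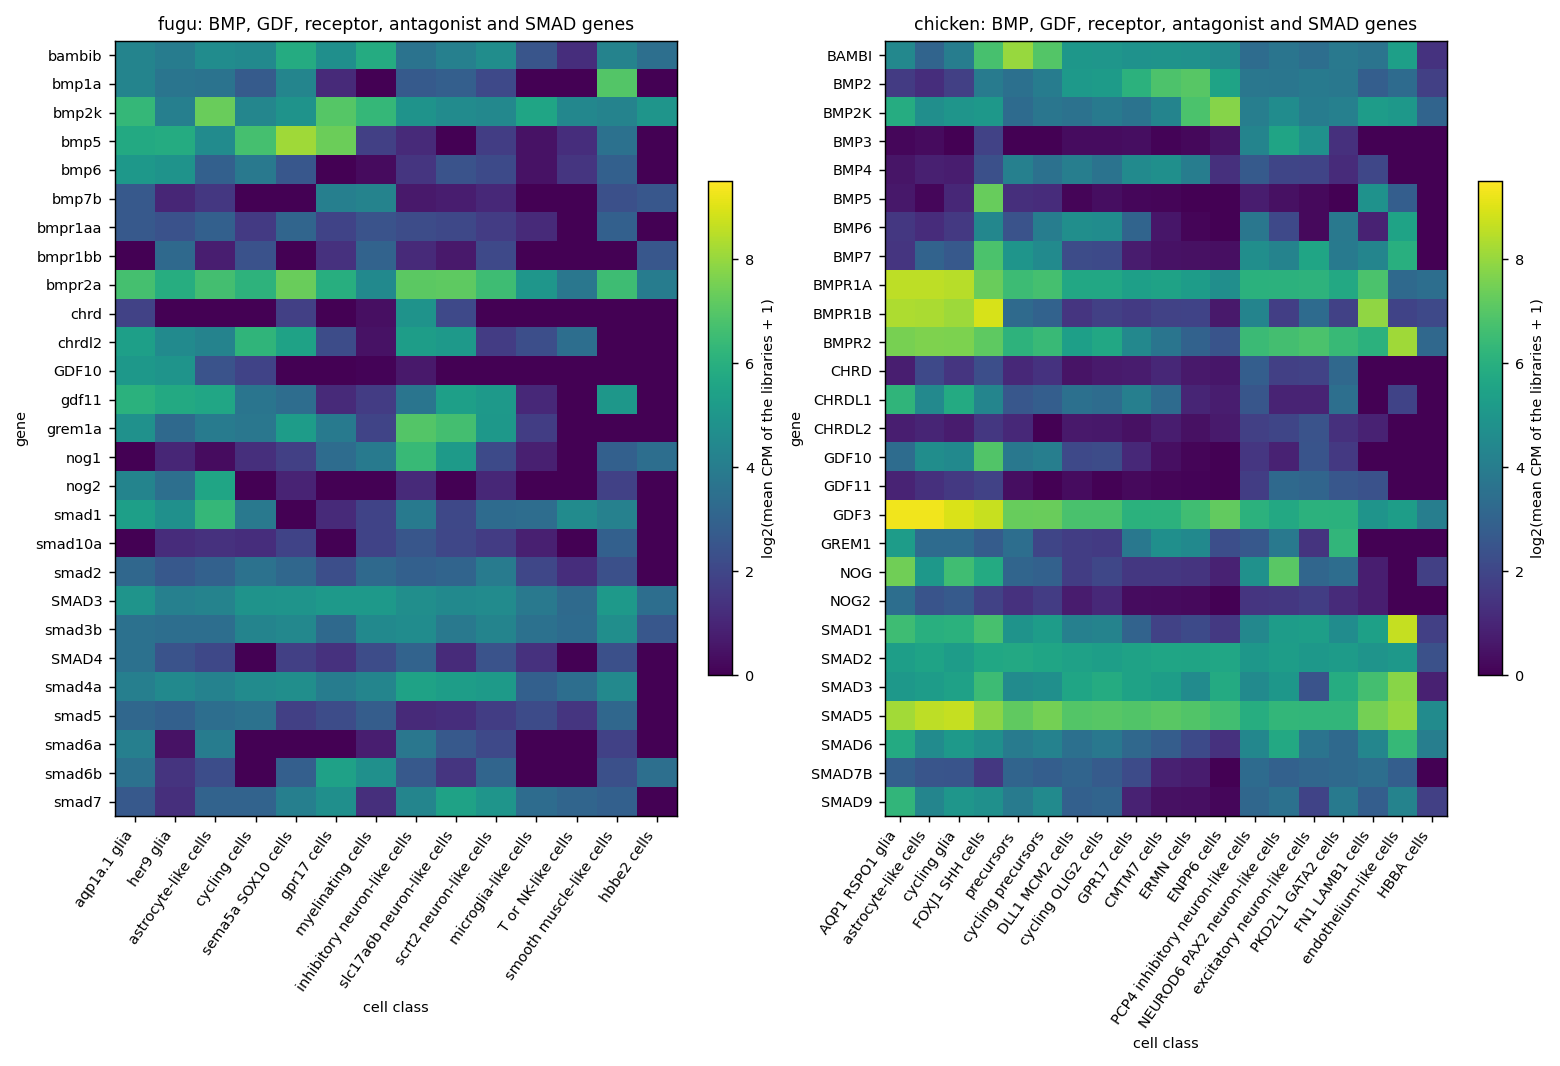
Mean level over the 2 libraries, as log2(CPM + 1), of the ligands, receptors, antagonists and SMADs that passed the filter, 1 chicken antagonist left out, in every class of fugu and chicken, with bright squares for high levels. BMPR1A, BMPR1B and GDF3 are bright in chicken glial and FOXJ1 SHH cells, and BMP2K, GDF3 and SMAD5 are the brightest squares of the ENPP6 column.

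The genes were then counted over each comparison of classes. Between chicken ENPP6 cells and precursors, 5 of the 32 genes tested were higher and 19 lower. Of all 13408 genes tested, 58.0% were called, 26.5% higher and 31.5% lower, and the median fold change was -2.73 over the 32 genes and -0.07 over all genes. The median of the 32 was -2.38 with the genes of too few UMIs set to their bound. By role, 3 of 3 receptors, 5 of 7 secreted antagonists, BAMBI, both inhibitory SMADs and 5 of 9 ligands were lower. The 5 higher genes were BMP2, BMP3, GDF3, SMAD3 and BMP2K, of which BMP3 rested on 5 UMIs in ENPP6 cells and 0 in precursors and GDF3 lost its call with the size factors of DESeq2 (edgeR adjusted p = 0.141). Between GPR17 cells and precursors 6 were higher and 16 lower (18.3% and 28.4% of all genes, 46.7% in all, medians -0.74 and -0.14). Between ENPP6 and GPR17 cells 4 were higher and 12 lower (22.9% and 22.9% of all genes, 45.8% in all, medians -1.22 and 0.00). Between ENPP6 and ERMN cells 3 were higher and 9 lower (8.87% and 7.79% of all genes, 16.7% in all, medians -0.64 and 0.00). Cycling precursors differed from precursors in 1 gene higher and 3 lower (7.02% and 9.64% of all genes, 16.7% in all, medians -0.11 and -0.17), a share close to that of all genes. With genes of too few UMIs at their bound, the median of the 32 was -0.521 between ENPP6 and GPR17 cells, -0.299 between ENPP6 and ERMN cells and -0.0536 between cycling precursors and precursors. With the size factors of DESeq2 the share of calls over all genes that were higher was 57.3% in place of 42.1% there, and the call of GREM1 was lost.

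Chicken astrocyte-like cells had 19 genes higher and 7 lower than precursors, with 23.0% and 22.3% of all genes called in these directions, 45.3% in all, and medians of 1.37 and 0.00. The 7 lower genes were BAMBI, ID2 and 5 ligands (BMP2, BMP4, BMP5, BMP6 and BMP7). Higher were 3 of 3 receptors, 5 of 7 antagonists, 3 of 4 ID genes and 3 of 5 SMADs that are not inhibitory. AQP1 RSPO1 glia had 13 genes higher and 5 lower than astrocyte-like cells (11.8% and 10.2% of all genes, 22.0% in all, medians 0.45 and 0.00), with 4 of 4 ID genes and 4 of 7 antagonists among the higher and no receptor called.

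Fugu astrocyte-like cells had 15 of the 31 genes tested higher and 8 lower than myelinating cells. Of all 13356 genes, 49.7% were called, 22.1% higher and 27.6% lower, and the medians were 0.54 and -0.25. Higher were 3 of 4 ID genes, 4 of 5 ligands, 3 of 5 antagonists and smad1, and lower were id3, bmp7b, nog1, bmpr1bb, smad6b, bambib, smad3b and SMAD3. Her9 glia had 5 genes higher and 5 lower than astrocyte-like cells (13.5% and 16.2% of all genes, 29.7% in all, medians 0.28 and -0.03). Both shares were close to those of all genes there. Myelinating cells had 9 genes higher and 9 lower than sema5a SOX10 cells (28.0% and 19.9% of all genes, 47.9% in all, medians 0.67 and 0.35). Myelinating cells against gpr17 cells gave 2 higher and 5 lower (16.2% and 8.18% of all genes, 24.3% in all, medians 0.79 and 0.49), and gpr17 cells against sema5a SOX10 cells 4 and 4 (10.9% and 13.6% of all genes, 24.5% in all, medians -0.39 and -0.01). Between myelinating and gpr17 cells, and between gpr17 and sema5a SOX10 cells, the median of the 31 was 0.00 with genes of too few UMIs at their bound. In the same way it was 0.296 between myelinating and sema5a SOX10 cells and 0.0507 between her9 glia and astrocyte-like cells. The gpr17 class was small, with 61 and 44 cells, and in simulated data of its depth 46.5% of genes changed 4-fold were recovered, against 82.5% for chicken GPR17 cells and precursors. With the size factors of DESeq2 the counts became 1 higher and 7 lower between myelinating and gpr17 cells and 5 and 9 between myelinating and sema5a SOX10 cells, as the median of all genes moved by -0.44 and -0.67. Over all genes, the share of calls that were higher then became 39.6% in place of 66.4% between myelinating and gpr17 cells, 31.5% in place of 58.5% between myelinating and sema5a SOX10 cells, 32.8% in place of 44.5% between gpr17 and sema5a SOX10 cells, and 69.3% in place of 44.5% between astrocyte-like and myelinating cells.

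**Figure D5:**
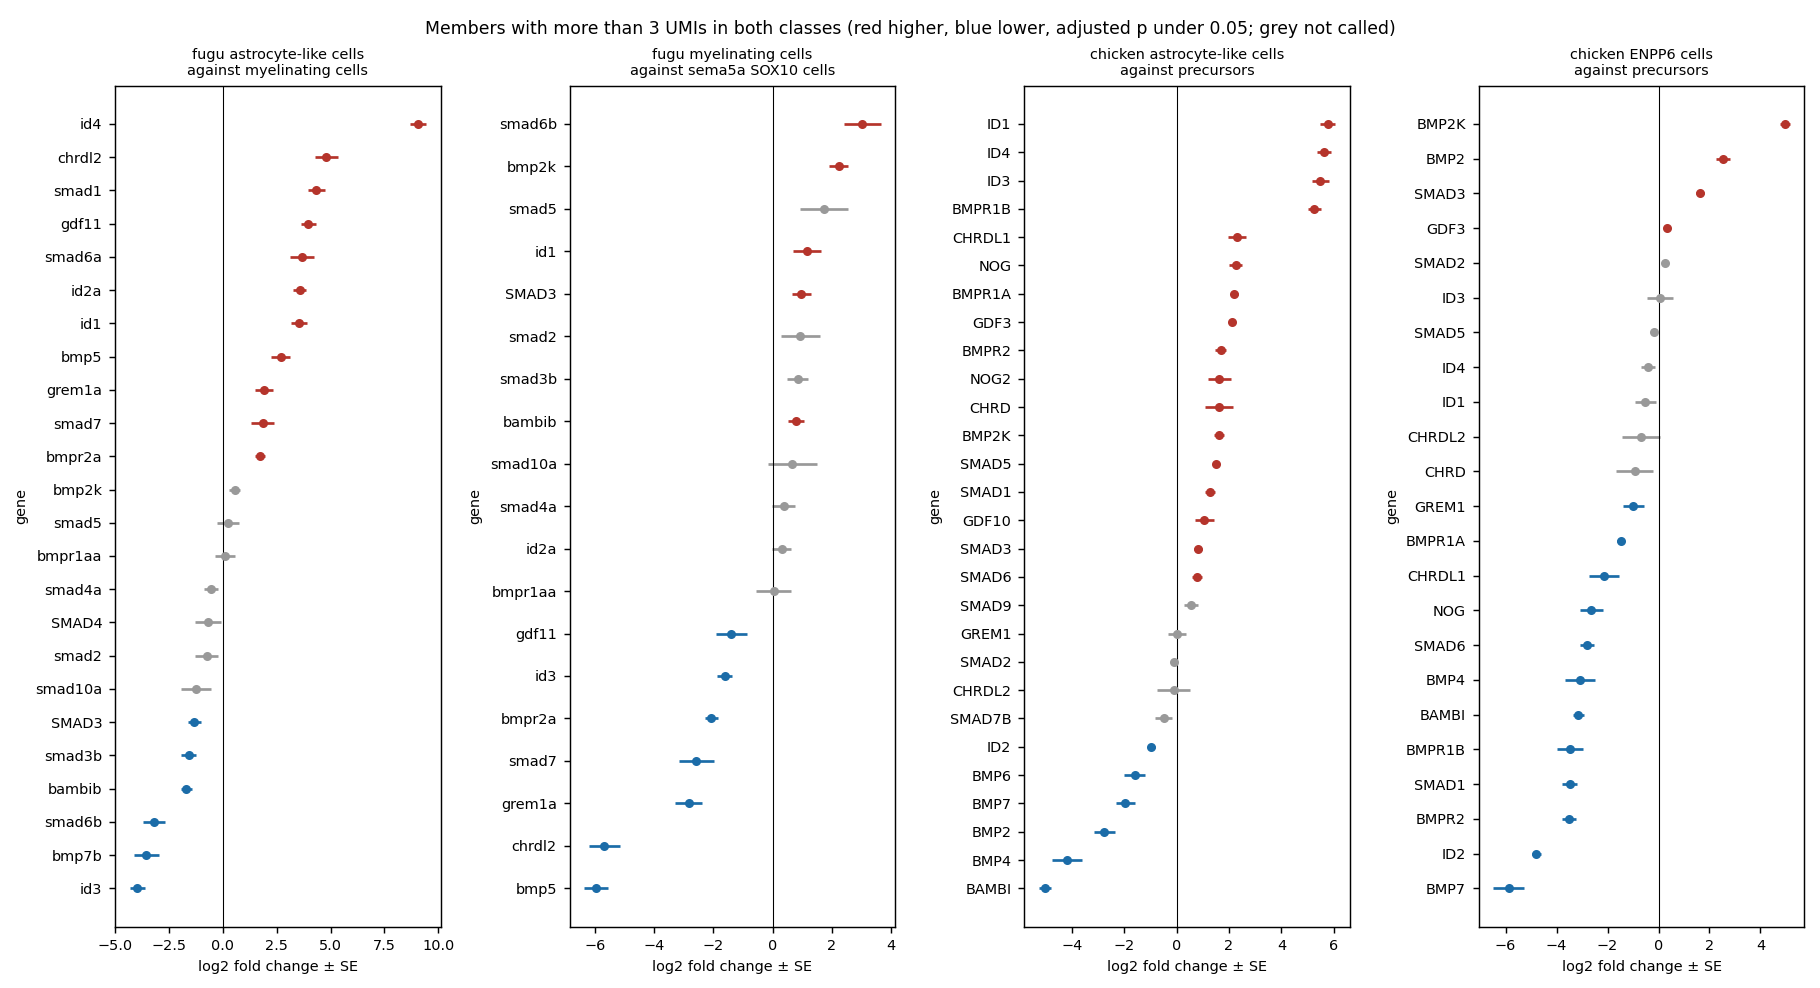
Log2 fold change with its standard error (bars) of each gene with more than 3 UMIs in both classes, in 4 comparisons of classes, 1 chicken antagonist left out. Receptors and most antagonists lie right of 0 for chicken astrocyte-like cells against precursors and left of 0 for ENPP6 cells against precursors, where 19 of 32 genes were lower.

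Each class was also set against the mean of the other classes of its species. Nearly every gene differed somewhere, so that 31 of 31 genes in fugu and 32 of 32 in chicken were called in some class, against 95.3% and 98.1% of all genes, and were higher in some class, against 95.1% and 97.6%. By class, 22 of the 32 chicken genes were higher in astrocyte-like cells and 22 in FOXJ1 SHH cells, against 33.8% and 24.6% of all genes. In ENPP6 cells 5 were higher and 11 lower, against 31.7% and 19.5% of all genes. Of the 31 fugu genes, 14 were higher in astrocyte-like cells, against 28.6% of all genes, and 14 in myelinating cells, against 39.8% of all genes. In aqp1a.1 glia 12 were higher, against 10.3% of all genes.

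Other genes of the wider TGF-beta and BMP pathway, taken from a fixed list, were counted in the same way. Of 48 tested in chicken, 9 were higher and 18 lower in ENPP6 cells than in precursors (26.5% and 31.5% of all genes), 8 and 17 in GPR17 cells than in precursors (18.3% and 28.4% of all genes), 9 and 13 in ENPP6 than in GPR17 cells (22.9% and 22.9% of all genes), and 16 and 9 in astrocyte-like cells than in precursors (23.0% and 22.3% of all genes). The protease gene TLL1, a relative of BMP1, marked ENPP6 cells, with 32.4 and 83.3 CPM in ENPP6 cells, against 0.235 and 0.117 CPM in GPR17 cells, and 2.42 and 1.66 CPM in ERMN cells. Its test against ERMN cells passed (log2 fold change 4.82 ± 0.46, adjusted p = 1.30e-08). The repressor gene ZEB1 had 4.79 and 6.42 CPM in ENPP6 cells, against 120.4 and 112 CPM in GPR17 cells (log2 fold change -4.14 ± 0.23, adjusted p = 1.38e-14). The TGF-beta receptor gene TGFBR2 had 0.117 and 0.469 CPM in GPR17 cells, against 25.9 and 26.8 CPM in precursors (log2 fold change -6.19 ± 0.42, adjusted p = 1.82e-12). FSTL3, which encodes a follistatin-like antagonist, had 0 UMIs in GPR17 and ENPP6 cells and was at least 12.2-fold and at least 9.55-fold lower there than in precursors. VWC2, a secreted BMP antagonist gene, had 0 and 0.371 CPM in ENPP6 cells, against 29.2 and 28.2 CPM in precursors. Astrocyte-like cells were marked by the BMP co-receptor gene RGMA, with 1378 and 1309 CPM in astrocyte-like cells, against 21.1 and 17.7 CPM in precursors (log2 fold change 6.24 ± 0.30, adjusted p = 1.26e-15), and by TLL2 (log2 fold change 6.48 ± 0.38, adjusted p = 6.35e-14). MSX2, a homeobox target of BMP signals, had 34.7 and 39.3 CPM in AQP1 RSPO1 glia, against 0.98 and 0.778 CPM in astrocyte-like cells (log2 fold change 5.33 ± 0.33, adjusted p = 2.30e-10), whereas INHBA, an activin subunit gene, was lower there on few UMIs (log2 fold change -2.91 ± 0.89, adjusted p = 0.0214). Of the 48 genes, 7 were higher and 12 lower in AQP1 RSPO1 glia than in astrocyte-like cells (11.8% and 10.2% of all genes), and 3 and 9 in ENPP6 than in ERMN cells (8.87% and 7.79% of all genes), with AMH among the lower on few UMIs (log2 fold change -2.64 ± 0.89, adjusted p = 0.0463). Only HEY1, a Notch and BMP target, was called between cycling precursors and precursors, where 16.7% of all genes were called (log2 fold change -0.73 ± 0.17, adjusted p = 0.00332).

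Of 47 such genes tested in fugu, 13 were higher and 8 lower in astrocyte-like than in myelinating cells (22.1% and 27.6% of all genes), and 9 and 8 in her9 glia than in astrocyte-like cells (13.5% and 16.2% of all genes). In the lineage, 9 and 16 were higher and lower in myelinating than in sema5a SOX10 cells (28.0% and 19.9% of all genes), 9 and 4 in myelinating than in gpr17 cells (16.2% and 8.18% of all genes), and 3 and 11 in gpr17 than in sema5a SOX10 cells (10.9% and 13.6% of all genes). The co-receptor gene rgma had 36 and 33.5 CPM in astrocyte-like cells, against 0 and 0 CPM in myelinating cells, at least 153-fold higher, and was at least 65.1-fold lower in myelinating than in sema5a SOX10 cells. The gene HEY1 separated the astrocyte-like cells from myelinating cells and her9 glia, with 194 and 174 CPM in astrocyte-like cells, against 0.718 and 0.64 CPM in myelinating cells (log2 fold change 7.43 ± 0.34, adjusted p = 5.64e-17), and 0.596 and 0.737 CPM in her9 glia. The her9 glia held the ligand gene amh, with 70.9 and 62.7 CPM in her9 glia, against 0 and 0 CPM in astrocyte-like cells, at least 89.8-fold higher. The repressor gene zeb2a had 186 and 181 CPM in gpr17 cells, against 0 and 7.31 CPM in sema5a SOX10 cells (log2 fold change 6.21 ± 0.55, adjusted p = 1.56e-10). The antagonist gene NBL1 went the other way, with 2.38 and 3.06 CPM in gpr17 cells, against 93.1 and 98.7 CPM in sema5a SOX10 cells (log2 fold change -4.74 ± 0.70, adjusted p = 5.48e-06), and 0.861 and 0.8 CPM in myelinating cells. Both copies named TOB2, an antiproliferative gene, were found in myelinating cells with 0 UMIs in gpr17 cells, at least 5.12-fold and at least 1.24-fold higher, and the first of them at 6.03 and 36.8 CPM in the 2 libraries.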

How the data were processed

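The authors mapped the 10x reads to the Takifugu rubripes and chicken genomes with Cell Ranger 7.2.0 and deposited unfiltered tables of UMI counts per gene and barcode, with no normalization. Barcodes above 3000 UMIs in fugu, and above 5000 and 5500 UMIs in chicken libraries 1 and 2, were taken. The barcodes with the highest Scrublet scores (scanpy 1.11.5) were removed as doublets, 54 and 53 in fugu and 532 and 550 in chicken. Cells were clustered per species with Seurat 5.3.0 (2000 variable features without the genes described here, 10 principal components, resolution 0.5), and classes were named from marker lists or by leading genes. Counts were summed per class and library, and genes with at least 50 UMIs were tested with the quasi-likelihood test of edgeR 4.0.16 (TMM scaling, Benjamini-Hochberg adjustment over all genes tested, 2 libraries per class). The ± values of fold changes are standard errors.

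The genes, lists and comparisons were chosen with earlier results of these data known, and 3 of the 12 comparisons (fugu myelinating against sema5a SOX10 cells, chicken AQP1 RSPO1 glia against astrocyte-like cells and chicken ENPP6 against ERMN cells) were added after the data were seen. Genes were named by a rule: every ID gene, the 5 other genes with the largest called change per comparison, those with a UMI in 5% of the cells of a class and a highest class mean at least 4 times the median over classes, and 2 genes of the wider pathway list per comparison. BMPR2, SMAD2, SMAD5 and the genes listed by name in the counts were chosen after their values were seen. Class sums of a library come from the same pool of animals, so that libraries pair them by design. The deviations of the 2 libraries from the class means correlated between classes with a median of 0.0586 in fugu and 0.1355 in chicken. The libraries of a species differed beyond sampling noise (chi-square per degree of freedom 17.7 and 76.3). In data simulated from these means with 200 genes changed 4-fold, the test recovered 46.5% of them between fugu myelinating and gpr17 cells (13356 genes) and 82.5% between chicken GPR17 cells and precursors (13408 genes). Intervals and floors cover counting error only, and a floor is 3 counts over both libraries of a class. Alternatives were DESeq2 1.42.0, its size factors within edgeR, no filter, a filter on 10% of cells, a higher UMI minimum, thinning to 3000 UMIs, other clusterings, no doublet removal, a block for the library and leaving out each library of a class. In the counts, 1 chicken antagonist gene is included that is not reported here by name. Duplicate symbols in fugu were told apart by gene identifier. No sequence is given because no reference was used here.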

Additional observations from a re-analysis of the deposited data

Results flagged for a closer look

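For 6 genes the TMM-scaled levels of the most myelinated class and the GPR17 class differed in opposite directions in fugu and chicken, in both libraries of each. Each of the 6 missed the threshold in at least 1 of the species, and whether fugu and chicken differ in this way was not tested. The fold changes are log2 values for fugu myelinating against gpr17 cells and for chicken ENPP6 against GPR17 cells. Fugu bmp2k had -0.23 (adjusted p = 0.603) and chicken BMP2K 4.43 (adjusted p = 9.22e-18). Fugu id2a had 0.63 (adjusted p = 0.291) and chicken ID2 -2.03 (adjusted p = 3.22e-11), and in fugu library 2 the unscaled levels of id2a went the other way, with 48.2 CPM in myelinating and 61.3 CPM in gpr17 cells. Fugu bambib had 1.53 (adjusted p = 0.00181) and chicken BAMBI -0.08 (adjusted p = 0.806). Fugu bmpr1bb had 2.73 (adjusted p = 0.0877), on 1 UMI in gpr17 cells, and chicken BMPR1B -1.55 (adjusted p = 0.049). Fugu smad1 had 1.39 (adjusted p = 0.538), also on 1 UMI in gpr17 cells, and chicken SMAD1 -1.73 (adjusted p = 0.000142). Fugu smad5 had 0.98 (adjusted p = 0.514), on 3 UMIs in gpr17 cells, and chicken SMAD5 -0.10 (adjusted p = 0.519).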

How the results depend on the processing

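Over 106 results on named genes and 1449 refits, 1354 kept their side of the threshold, 77 lost a call and 15 gained one. Another 3 turned round with a call in the main fit or the refit. The 1354 include any change of direction in which neither fit passed. Some of the lost and gained calls are not given with their genes above. The 3 are fold changes of fugu id1 without doublet removal, at 0.16 between myelinating and gpr17 cells, -1.49 between gpr17 and sema5a SOX10 cells and -1.32 between myelinating and sema5a SOX10 cells, and the cause was not tested. A filter on genes found in 10% of the cells of a class, which leaves fewer genes to test, gave 15 calls among the genes in place of 23 for fugu astrocyte-like against myelinating cells, 10 in place of 16 for chicken ENPP6 against GPR17 cells and 14 in place of 24 for ENPP6 cells against precursors. The same filter gave 8 in place of 18 for fugu myelinating against sema5a SOX10 cells. With cells thinned to 3000 UMIs, cycling precursors against precursors gave 2 calls in place of 4. Thinning also gave 7 in place of 12 for ENPP6 against ERMN cells and 15 in place of 22 for GPR17 cells against precursors. For fugu myelinating against sema5a SOX10 cells it gave 12 in place of 18. Leaving out 1 library of a class gave 3 to 7 calls for fugu myelinating against gpr17 cells (3 without gpr17 replicate 1, where the calls of id1, id4 and bmpr2a were lost), 5 to 8 for gpr17 against sema5a SOX10 cells (5 without gpr17 replicate 2) and 2 to 3 for cycling precursors against precursors (2 without precursors replicate 1). It also gave 11 to 15 in place of 18 for AQP1 RSPO1 glia against astrocyte-like cells (11 without AQP1 RSPO1 glia replicate 2) and 7 to 9 in place of 12 for ENPP6 against ERMN cells (7 without ENPP6 replicate 2). With the library as a block, which pairs the class sums, 11 calls of single genes changed. Calls were gained for fugu grem1a (adjusted p = 0.0185, myelinating against gpr17 cells), bmp2k (0.0155, astrocyte-like against myelinating cells), gdf11 (0.0484) and id2a (0.0188, both her9 glia against astrocyte-like cells) and smad3b (0.0393, myelinating against sema5a SOX10 cells), and for chicken ID4 (0.0182, GPR17 cells against precursors), SMAD9 (0.0473, ENPP6 against GPR17 cells, and 0.0489, astrocyte-like cells against precursors) and SMAD2 (0.0204, ENPP6 cells against precursors, and 0.0459, cycling precursors against precursors). The call of BMP3 between GPR17 cells and precursors was lost (0.0513), and the block changed no other call. The fugu gpr17 class held 61 and 44 cells, which limits what its comparisons can detect.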
